A study of Mus musculus with 4 samples.

Results

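The Bcl2 family genes described here are Bbc3, Bad, Bid, Bcl2l11, Bax, Bak1, Bcl2, Bcl2l1, Bcl2l2 and Mcl1, 10 of the 24420 gene symbols measured by RNA sequencing of mouse testis. They were chosen by symbol, as members that promote or restrain apoptosis, with the lower Bbc3 value of the mutant libraries already known. All differences between genotypes for these genes are therefore given as a description and support nothing by themselves. The groups were testis of FVB mice labelled lrrc8a MUT (libraries MUT 1 and MUT 2) and testis of FVB mice labelled WT (WT 1 and WT 2). Neither the animals' age nor the kind of mutation is stated, and nothing says that same-genotype libraries came from different mice, so any error measures only the spread between libraries, which may be technical. The product of Lrrc8a is an obligatory component of a chloride channel that opens when cells swell, and the series title links this channel's activity to male fertility.

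Proteins of the Bcl2 family decide whether the outer mitochondrial membrane is opened and cytochrome c is released, the step that starts the caspase cascade of the intrinsic pathway of apoptosis. Effectors (Bax, Bak1) form the pores, pro-survival members (Bcl2, Bcl2l1, Bcl2l2, Mcl1) hold them back, and BH3-only members (Bbc3, Bad, Bid, Bcl2l11) sense damage or loss of growth signals and tip the balance. In the testis many germ cells are removed by apoptosis during normal spermatogenesis, and mice lacking Bax or Bcl2l2 are known to be infertile as males.

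The libraries held between 40426400 (MUT 2) and 68192776 (WT 1) reads recovered from the deposited CPM, which are reads scaled by the authors. These CPM summed to 992487 and 987723 in MUT and 1011463 and 1008533 in WT. The scaling was thus not to plain library totals. Lrrc8a itself was at 13.5 and 15.9 CPM in MUT 1 and MUT 2 and at 18.2 and 17.1 CPM in WT 1 and WT 2, which was not called (limma over all tested genes, log2 fold change -0.26, SE 0.0998, Benjamini-Hochberg adjusted p = 0.218). Germ cells are the labelled cell type and testis the labelled source, and all 9 germ cell markers were detected. Their summed level was 9845 and 9243 CPM in MUT and 10573 and 9742 CPM in WT, so the genotypes overlapped. By their means, 3 of the 9 were higher in MUT (Ddx4, Dazl and Piwil1), while Sycp3, Spo11, Acrv1, Tnp1, Prm1 and Prm2 were lower. Markers of other testis cells were present too. The 6 Leydig cell markers summed to 1057 and 1096 CPM in MUT and 915 and 896 CPM in WT, with 5 of 6 higher in MUT by their means. The 6 Sertoli cell markers summed to 798 and 831 CPM in MUT and 783 and 734 CPM in WT, with 4 of 6 higher in MUT. The 5 peritubular myoid markers summed to 95 and 104 CPM in MUT and 117 and 110 CPM in WT, where all 5 were lower in MUT. Sums overlapped between genotypes for macrophage and lymphocyte markers (34.2 to 39.7 CPM) and differed little for endothelial markers (40.1 to 42.1 CPM). All 4 haemoglobin genes looked up were listed at 0 in every library. Whether the way reads were counted gave these zeros was not tested, so nothing is read from them about blood. The 4 epididymis markers summed to at most 0.66 CPM. Without the marker of highest CPM in each list, a check chosen after the values were seen, the Sertoli sums overlapped (71.2 and 64.8 CPM in MUT, 65.04 and 63.7 CPM in WT). The Leydig sums (400.1 and 415 CPM in MUT, 343 and 363 CPM in WT) and the myoid sums (54.0 and 57.4 CPM in MUT, 67.8 and 64.6 CPM in WT) did not overlap. The Leydig and myoid markers thus move with the genotype beside the results below, and their part in them was not tested. In such whole-tissue libraries fewer cells of a type and less RNA per cell cannot be told apart.

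Sequence upstream of a transcription start is shown for Bbc3 and Bax, since both are textbook targets of the stress-activated transcription factor p53 and only Bbc3 was called between the genotypes. The 250 bases before the most upstream RefSeq start of Bbc3 lie at chr7:16309333-16309582 on the plus strand, and those before the start of Bax at chr7:45466899-45467148 on the minus strand (GRCm38.p6). The Bbc3 window lies inside the GENCODE gene, which starts at 16308393, though in none of its exons. The Bax window lies directly upstream of its GENCODE gene. Capitals mark GC boxes (GGGCGG on either strand, overlapping matches counted) and, in Bax, 1 match to the p53 half-site, AGGCAAGCTT.
Bbc3: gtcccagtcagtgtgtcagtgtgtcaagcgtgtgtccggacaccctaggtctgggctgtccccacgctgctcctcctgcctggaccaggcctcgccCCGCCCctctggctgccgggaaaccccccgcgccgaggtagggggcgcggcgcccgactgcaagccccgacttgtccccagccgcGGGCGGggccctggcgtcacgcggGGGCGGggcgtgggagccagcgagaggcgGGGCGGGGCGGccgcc
Bax: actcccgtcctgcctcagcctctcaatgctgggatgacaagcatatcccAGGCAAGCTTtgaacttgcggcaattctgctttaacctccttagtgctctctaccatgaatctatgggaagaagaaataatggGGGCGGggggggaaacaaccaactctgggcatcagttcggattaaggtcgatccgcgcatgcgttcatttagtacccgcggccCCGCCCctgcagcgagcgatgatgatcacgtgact
The Bbc3 window is 76.4% G or C and holds 5 GC boxes and 27 CpG dinucleotides, while the Bax window is 54.0% G or C with 2 GC boxes and 14 CpG dinucleotides. Over 32851 RefSeq windows of 250 bases the medians were 52.4% G or C and 6 CpG dinucleotides, 32.7% held a GC box and 7.13% held a p53 half-site. All 10 members matched RefSeq, and among all their windows the Bax window was the only one with a p53 half-site match, which starts 201 bases before the start site. A match is a description of letters, and the absence of one in the 3 windows of Bbc3 says nothing of binding elsewhere in the gene.

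Among the BH3-only genes, Bbc3 was lower in MUT testis. Bbc3 encodes Puma, a protein that binds all pro-survival members and is induced by p53, and lies at chr7:16308393-16318205 on the plus strand (ENSMUSG00000002083). It was measured at 2.79 and 3.10 CPM in MUT 1 and MUT 2 and at 4.64 and 5.09 CPM in WT 1 and WT 2. Both MUT libraries lay below both WT libraries, and the 2 libraries of a genotype differed by less than the genotypes did. The means were 2.95 ± 0.223 CPM in MUT and 4.86 ± 0.314 CPM in WT (SD, n = 2), from 136 and 127 reads in MUT and 313 and 253 reads in WT. On the scale of log2(CPM + 0.5), which understates changes of weakly expressed genes, the fold change was -0.64 (SE 0.134, 95% interval -0.92 to -0.36).

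The other BH3-only genes differed by less. Bad, whose protein neutralizes pro-survival members when growth factor signalling stops, took the most reads of the 4, at 39.2 and 35.5 CPM in MUT and 42.0 and 39.2 CPM in WT (chr19:6941861-6951899, plus strand). The lower WT library exceeded the higher MUT library only narrowly, and the log2 fold change was -0.12 (95% interval -0.29 to 0.05). Bid, which carries the signal of death receptors to mitochondria after cleavage by caspase 8, was at 4.14 and 4.25 CPM in MUT and 4.84 and 4.24 CPM in WT (chr6:120891930-120916853, minus strand), with overlapping genotypes and a log2 fold change of -0.10 (-0.37 to 0.17). Bcl2l11 encodes Bim, a BH3-only protein that is held back by survival signalling. It was at 8.53 and 7.84 CPM in MUT and 6.99 and 7.60 CPM in WT (chr2:128126038-128162547, plus strand), the only tested member with both MUT libraries above both WT libraries, and its log2 fold change of 0.16 had an interval from -0.08 to 0.39.

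Neither effector gene was called. Bax was at 8.08 and 7.77 CPM in MUT and 7.99 and 7.198 CPM in WT (chr7:45461697-45466898, minus strand), with overlapping genotypes and a log2 fold change of 0.06 (-0.18 to 0.29). Bak1 was at 14.8 and 14.95 CPM in MUT and 17.2 and 15.4 CPM in WT (chr17:27019810-27029009, minus strand). Both MUT libraries lay below both WT libraries, of which WT 2 was close to them, and the log2 fold change was -0.13 (-0.33 to 0.07).

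Among the 3 tested pro-survival genes, none had a 95% interval that left out 0. Bcl2l1 encodes Bcl-xL and, by splicing, a shorter form that promotes death, which gene-level values cannot separate, and was at 128 and 136 CPM in MUT and 143 and 138 CPM in WT (chr2:152780668-152831728, minus strand). MUT 2 and WT 2 nearly met, and the log2 fold change was -0.09 (-0.23 to 0.05). Mcl1, whose short-lived protein guards Bak1 in particular, was at 82.3 and 78.2 CPM in MUT and 79.0 and 90.1 CPM in WT (chr3:95658788-95663176, plus strand), so that the WT libraries enclosed MUT 1 (-0.07, interval -0.23 to 0.09). Bcl2l2, which encodes Bcl-w, was at 25.2 and 20.1 CPM in MUT and 22.1 and 20.0 CPM in WT (chr14:54883377-54888234, plus strand). Its MUT libraries differed by 0.319 on the log2 scale, more than any other tested member did within a genotype, and the fold change was 0.10 (-0.12 to 0.31).

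Bcl2, the founding member of the family, was barely detected, at 0.410 and 0.269 CPM in MUT and 0.578 and 0.261 CPM in WT (chr1:106538178-106714274, minus strand). It was the only member below the filter of 1 CPM in at least 2 libraries and was not tested. These values rest on 20, 11, 39 and 13 reads, and the exact 95% Poisson intervals ran from 0.134 to 0.633 CPM over the MUT libraries and from 0.139 to 0.791 CPM over the WT libraries, for counting error only. A fit without the filter gave a log2 fold change of -0.12 (SE 0.166) for CPM + 0.5, a scale that understates changes at so low a level.

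**Figure D1:**
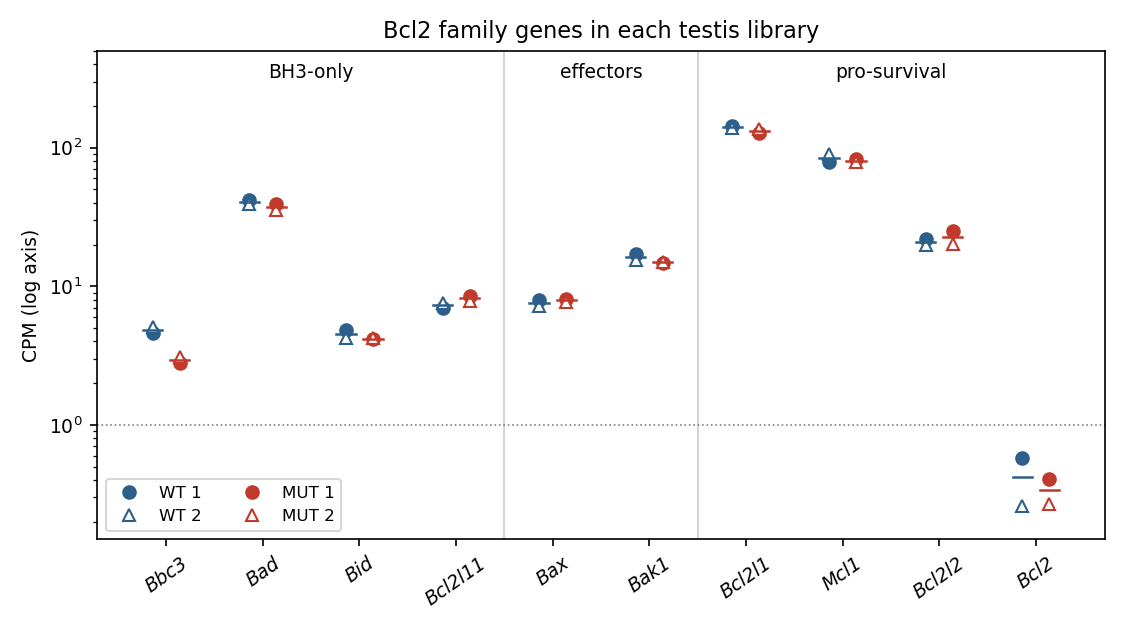
CPM of each of the 10 Bcl2 family genes (log axis) in the 4 testis libraries, with WT in blue, MUT in red, filled circles for library 1, open triangles for library 2, short lines for group means and a dotted line at the 1 CPM filter. Bbc3 has both MUT points (2.79 and 3.10 CPM) below both WT points (4.64 and 5.09 CPM), Bcl2l1 has the highest CPM, and Bcl2 is the one gene under the filter.

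Of the 9 tested members, 1 was called lower in MUT (Bbc3) and 0 higher by limma at an adjusted p under 0.05, beside 0.267% of all 15364 tested genes called lower and 0.482% called higher. Since Bbc3 was known when the list was drawn up, nothing is read from this count. At an unadjusted p under 0.05 the counts were also 1 lower and 0 higher, where 6.98% of all tested genes were lower and 7.74% higher. The quasi-likelihood test of edgeR on the recovered reads called the 1 lower and 0 higher, and DESeq2 called 0 in either direction. Both MUT libraries lay below both WT libraries for 4 members (Bbc3, Bad, Bak1 and Bcl2l1) and above them for 1 (Bcl2l11), beside 22.6% and 23.0% of all tested genes. The median log2 fold change of the 9 members was -0.09, against -0.0016 over all tested genes. For each of the 8 tested members other than Bbc3 the 95% interval included 0, and none of these intervals reached below -0.37 or above 0.39.

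**Figure D2:**
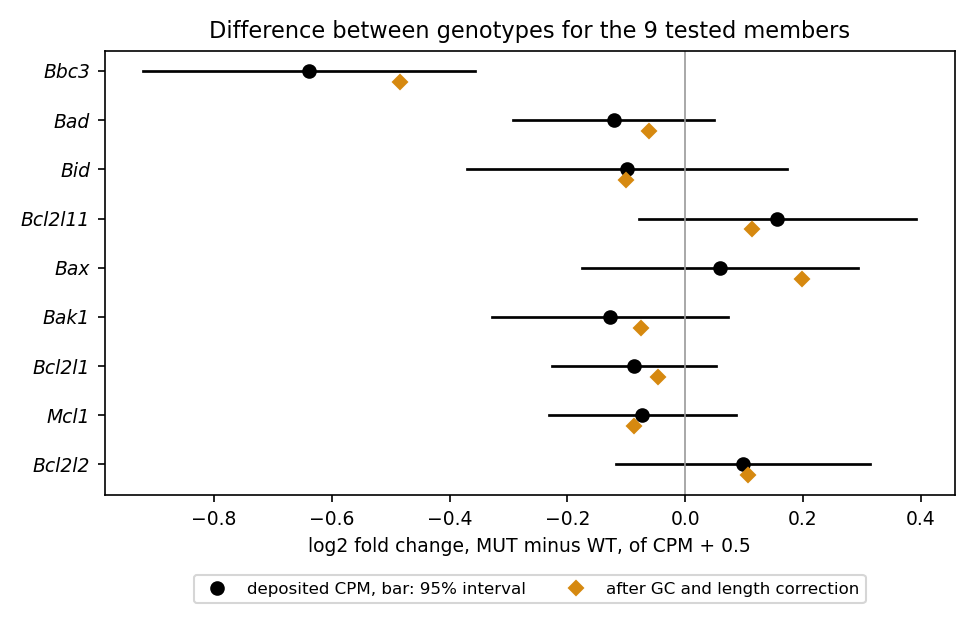
Log2 fold change of CPM + 0.5, MUT minus WT, for the 9 tested members, with black points and 95% intervals from the deposited CPM and orange diamonds after correction for GC content and transcript length. Only the interval of Bbc3 (-0.92 to -0.36) leaves out 0, and its corrected value is -0.48.

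Bbc3 has an unusually GC-rich transcript, and the difference between genotypes followed GC content across the transcriptome. The longest annotated transcript of Bbc3 (1814 nt) is 65.2% G or C, higher than 99.6% of tested genes, whose median was 49.6%. Across 14778 tested genes with a known GC content, Spearman's rho between GC content and the log2 fold change was -0.211, a description over genes that share the same 4 libraries. The 612 tested genes with at least 60% G or C had a median log2 fold change of -0.11 (quartiles -0.22 and -0.021), whereas it was 0.022 for the 867 genes below 40%. When the dependence of each library on GC content and length was taken out, the Bbc3 difference was -0.48 (SE 0.128) and was no longer called. Bax, the other GC-rich member at 63.5%, moved from 0.06 to 0.20 (SE 0.104) and was not called either. No other member moved by more than 0.0603.

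**Figure D3:**
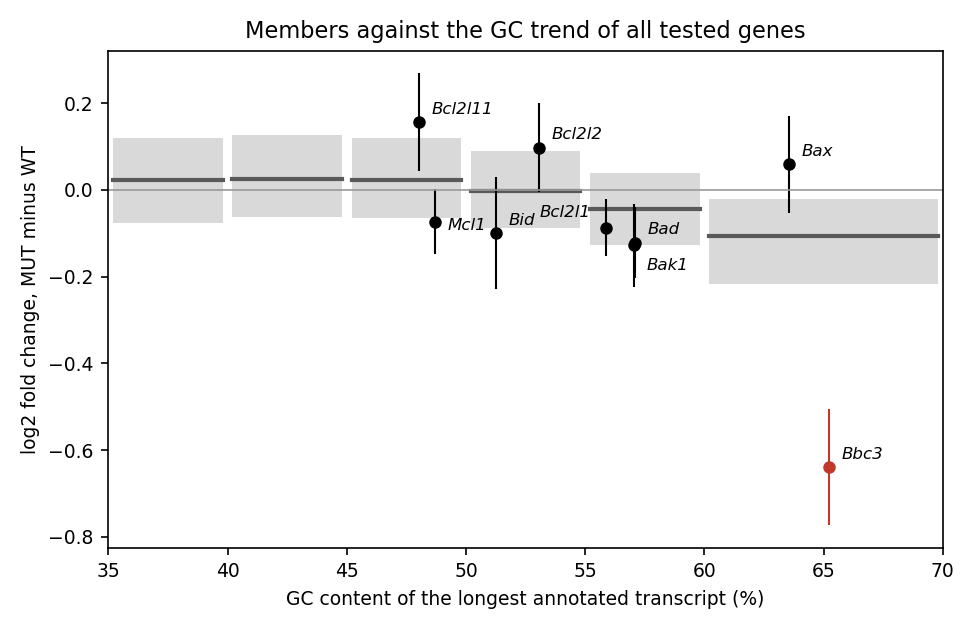
Log2 fold change, MUT minus WT, against GC content of the longest annotated transcript, with grey boxes for the quartiles and dark lines for the median of all tested genes in each GC range (the ranges below 40% and from 60% are drawn to 35% and 70%) and points with 1 SE for the 9 members. The median falls to -0.11 in the most GC-rich range, and Bbc3 at -0.64 lies below the quartiles there while Bax at 0.06 lies above them.

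The direction of the Bbc3 difference was the same in all 17 alternatives in which it was tested, with log2 fold changes between -0.73 and -0.48. For most of them this was fixed in advance. With both MUT libraries below both WT libraries, no change of pseudocount, filter, variance model, block or library left out could reverse the sign. Bbc3 was called in 9 of the 17. The call was lost without MUT 1 (-0.57) and without WT 2 (-0.58), and kept without MUT 2 (-0.70) and without WT 1 (-0.70).

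**Figure D4:**
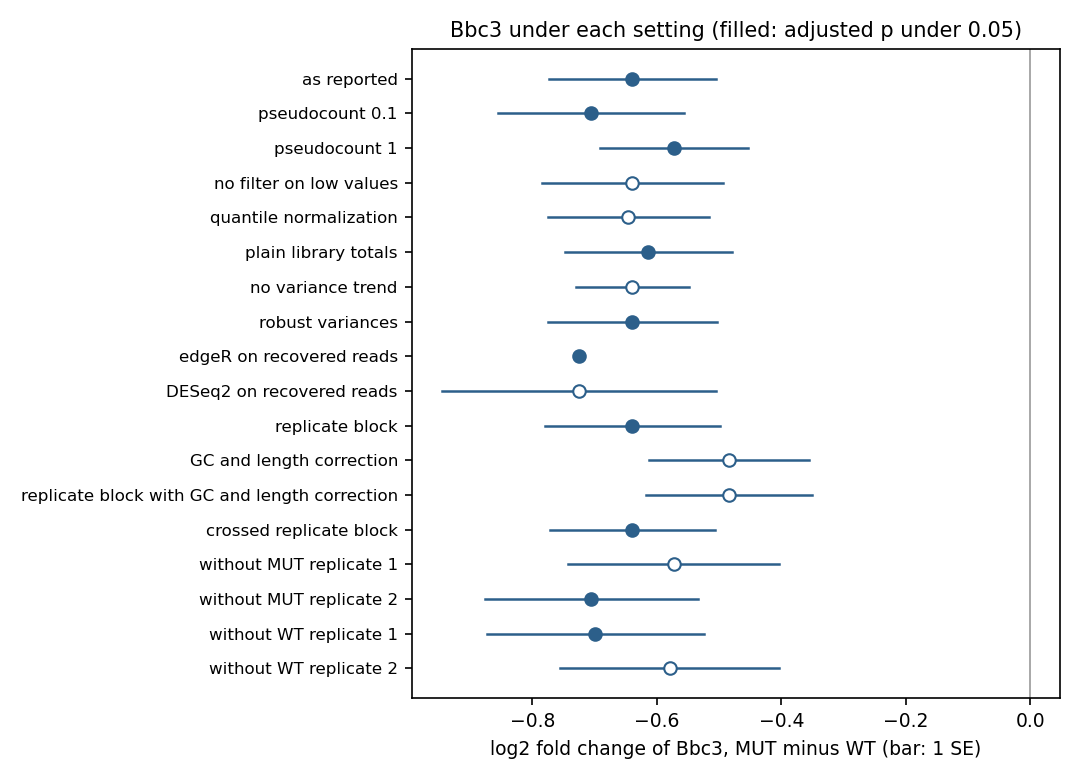
Log2 fold change of Bbc3, MUT minus WT, as reported and under each of 17 alternative settings, with bars of 1 SE (none for edgeR) and filled points where the adjusted p was under 0.05. All points lie between -0.73 and -0.48, and 9 of the 17 alternatives are filled.

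Levels of different members were compared as CPM per kb of the longest annotated transcript. By its mean over the 4 libraries, Bcl2l1 stood first at 53.2 CPM per kb, followed by Bad at 25.4, Mcl1 at 24.1, Bax at 7.05, Bak1 at 6.53, Bcl2l2 at 5.73, Bbc3 at 2.15, Bid at 1.81, Bcl2l11 at 1.54 and Bcl2 at 0.0528 CPM per kb. Ranges over the libraries overlapped between Bad and Mcl1, Bax and Bak1, Bax and Bcl2l2, Bak1 and Bcl2l2, Bbc3 and Bid, and Bbc3 and Bcl2l11. The order within these pairs is not set. In MUT 1, Bbc3 (1.54 CPM per kb) was below both Bid (1.71) and Bcl2l11 (1.69). Bcl2l1 was above all others in every library (at least 50.01 CPM per kb, against at most 27.4 for Bad). Pro-survival members together reached 80.7 and 81.3 CPM per kb in MUT and 84.8 and 85.4 in WT, BH3-only members 30.5 and 28.2 in MUT and 33.3 and 31.7 in WT, and effectors 13.5 and 13.3 in MUT and 14.5 and 13.0 in WT.

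Ratios within a library do not depend on its scaling, but they keep any dependence on GC content. Bbc3 is 65.2% and Mcl1 48.7% G or C, and their GC-corrected log2 fold changes were -0.48 and -0.09. Since Mcl1 differed little (-0.07 uncorrected), its ratio with Bbc3 largely repeats the Bbc3 difference, which was known beforehand. The ratio of Bbc3 to Mcl1, in CPM per kb, was 0.0639 and 0.0748 in MUT and 0.111 and 0.106 in WT. Both MUT ratios were below both WT ratios, and the difference was -0.65 on the log2 scale (between -0.76 and -0.54 when single libraries were left out). The ratio of Bax to Bcl2 was 129 and 189 in MUT and 90.3 and 180 in WT, so the genotypes overlapped, and its difference of 0.29 ran from -0.21 to 0.79 when single libraries were left out. With 2 libraries per genotype the smallest two-sided p of an exact permutation test is 0.33, so no p is given for these ratios.

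Several members share exon sequence with a neighbour, and whether reads were counted by strand is not stated. Bak1 shares 437 and 177 exonic bases with 2 gene models of the antisense gene Ggnbp1, a gametogenetin-binding protein gene that took far more reads, at 822 and 854 CPM in MUT and 914 and 822 CPM in WT. Bak1 and Ggnbp1 were both highest in WT 1. In WT 2, Bak1 lay above both MUT libraries, whereas Ggnbp1 did not. Whether Bak1 values hold reads of Ggnbp1 was not tested. Bad shares 524 bases with the antisense gene Gpr137 (134 to 151 CPM), and Bid shares 628 bases with the antisense family member Bcl2l13 (43.2 to 45.3 CPM). Bcl2 shares 558 bases with the antisense gene D630008O14Rik, not analysed here. On its own strand, Bcl2l2 shares 594 bases with the gene model Gm20521, and Bax 192 bases with Gm45808, neither analysed here. Without strand-aware counting, reads in the bases that Bak1, Bad, Bid and Bcl2 share cannot be told apart from those of their antisense partners. In the bases that Bcl2l2 and Bax share on their own strand, strand does not tell reads apart. Bbc3, Bcl2l11, Bcl2l1 and Mcl1 overlap no other annotated gene.

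Further genes of the Bcl2 family were looked up from a list of 16, of which 10 were tested and none was called (limma, unadjusted p under 0.05 for 1 higher and 1 lower, beside 7.74% and 6.98% of all tested genes, and 0 calls by edgeR or DESeq2). Bcl2l15, a weakly expressed relative, had the largest difference, with 1.497 and 1.54 CPM in MUT against 2.27 and 2.29 CPM in WT (-0.46 on the log2 scale, SE 0.157, limma adjusted p = 0.174). Bnip3, a hypoxia-induced mitophagy receptor, was at 10.8 and 13.1 CPM in MUT and 9.83 and 10.2 CPM in WT (0.23, SE 0.11, adjusted p = 0.33). Bcl2l14, which encodes Bcl-G, was at 488 and 503 CPM in MUT and 525 and 512 CPM in WT. Bcl2l12 was at 44.5 and 42.2 CPM in MUT and 47.9 and 48.8 CPM in WT (-0.16, SE 0.0756, limma adjusted p = 0.343). Bcl2l13 and Bnip3l lay between 43.2 and 51.1 CPM in every library, with log2 fold changes of 0.025 and 0.0022. The BH3-only genes Pmaip1, Bik and Bmf and the effector-like Bok were below 5 CPM, with log2 fold changes of 0.14, 0.20, 0.11 and -0.08. Hrk, Bcl2a1a, Bcl2a1b, Bcl2a1d and Bcl2l10 stayed under the filter, and Bcl2a1c was listed at 0 in every library. The near-identical Bcl2a1 copies may share reads.

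Downstream of the mitochondria, none of 24 tested genes of the apoptosis machinery was called in either direction (unadjusted p under 0.05 for 2 higher and 0 lower, against 7.74% and 6.98% over all tested genes, and 0 calls by edgeR or DESeq2), and their median log2 fold change was 0.06. The 3 genes with the smallest p-values were Xiap, Birc3 and Birc6, none of them called. Xiap, which blocks caspases directly, was at 7.87 and 7.97 CPM in MUT and 5.49 and 6.41 CPM in WT (0.39, SE 0.118, limma adjusted p = 0.129). Birc3, a ubiquitin ligase of the same family, was at 3.98 and 3.32 CPM in MUT and 2.66 and 2.63 CPM in WT (0.40, SE 0.143), and the large Birc6 at 81.9 and 79.9 CPM in MUT and 69.6 and 76.8 CPM in WT (0.15, SE 0.0728). The highest CPM belonged to Vdac2, a mitochondrial porin gene that was between 457 and 480 CPM, and Diablo, whose product relieves caspase inhibition, at 336 and 341 CPM in MUT and 357 and 353 CPM in WT.

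Of the death receptor pathway, 9 of 12 genes were tested and none was called in either direction (unadjusted p under 0.05 for 1 higher and 0 lower, against 7.74% and 6.98% over all tested genes, and 0 calls by edgeR or DESeq2), with a median of 0.11. Cflar, an inhibitor of caspase 8, was at 12.4 and 11.6 CPM in MUT and 10.5 and 9.59 CPM in WT (0.25, SE 0.103, limma adjusted p = 0.265). Casp8 itself was at 2.99 and 2.59 CPM in MUT and 2.17 and 2.27 CPM in WT (0.27, SE 0.149), and the receptor gene Tnfrsf21 had a log2 fold change of 0.21 (SE 0.122). Those with the highest CPM, Ripk1 and Tnfrsf1a, were between 11.9 and 15.3 CPM and had log2 fold changes of 0.06 each.

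The p53 list, to which Bbc3 and Bax would belong but which was kept free of members, had 22 tested genes and no call in either direction (unadjusted p under 0.05 for 4 higher and 0 lower, against 7.74% and 6.98% over all tested genes, and 0 calls by edgeR or DESeq2). Its median log2 fold change was 0.07, and 0.04 after the correction for GC content and length. After it, medians were 0.03 for the machinery, 0.17 for death receptors, 0.11 for the other routes described below, 0.0024 for the wider family and -0.06 for the members. Both MUT libraries lay above both WT libraries for 11 of the 22 genes and below them for 1, beside 23.0% and 22.6% of all tested genes. More genes lay above than below in the death receptor, other-route and machinery lists too, but not in the wider family. All these genes share the same libraries, and nothing is read from the counts. The counts above and below were 5 and 0 of 9 death receptor genes and 5 and 1 of 11 genes of the other routes. They were 10 and 6 of 24 machinery genes, and 3 and 4 of 10 wider family genes. Ei24, a p53-induced gene of the endoplasmic reticulum, was at 21.4 and 20.2 CPM in MUT and 17.9 and 15.8 CPM in WT (0.30, SE 0.0939, limma adjusted p = 0.14). Ccng1, the p53-induced cyclin G1 gene, and Rrm2b, of nucleotide supply for DNA repair, had log2 fold changes of 0.26 (SE 0.11) and 0.35 (SE 0.151). Mdm2 and Mdm4, which restrain p53, had the highest CPM, at 148 to 158 CPM and 124 to 147 CPM. Trp53 itself was at 16.4 and 17.5 CPM in MUT and 16.9 and 16.8 CPM in WT, and the cell cycle inhibitor gene Cdkn1a at 8.61 and 8.60 CPM in MUT and 8.38 and 9.69 CPM in WT. Trp53 and Cdkn1a were chosen after their values were seen.

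Among 11 tested genes of other routes to BH3-only induction, none was called in either direction (unadjusted p under 0.05 for 3 higher and 0 lower, against 7.74% and 6.98% over all tested genes, and 0 calls by edgeR or DESeq2), with a median of 0.09. Foxo1 and Foxo3 encode transcription factors that are known to induce Bcl2l11 and Bbc3. Foxo1 was at 10.7 and 9.65 CPM in MUT and 8.13 and 8.002 CPM in WT (0.32, SE 0.108, limma adjusted p = 0.174), and Foxo3 at 19.2 and 19.0 CPM in MUT and 16.3 and 16.4 CPM in WT (0.22, SE 0.0898, adjusted p = 0.258). The stress kinase genes Mapk9 and Mapk10 had the highest CPM, at 61.4 to 69.2 CPM and 49.1 to 62.0 CPM, with log2 fold changes of 0.09 and 0.18.

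**Figure D5:**
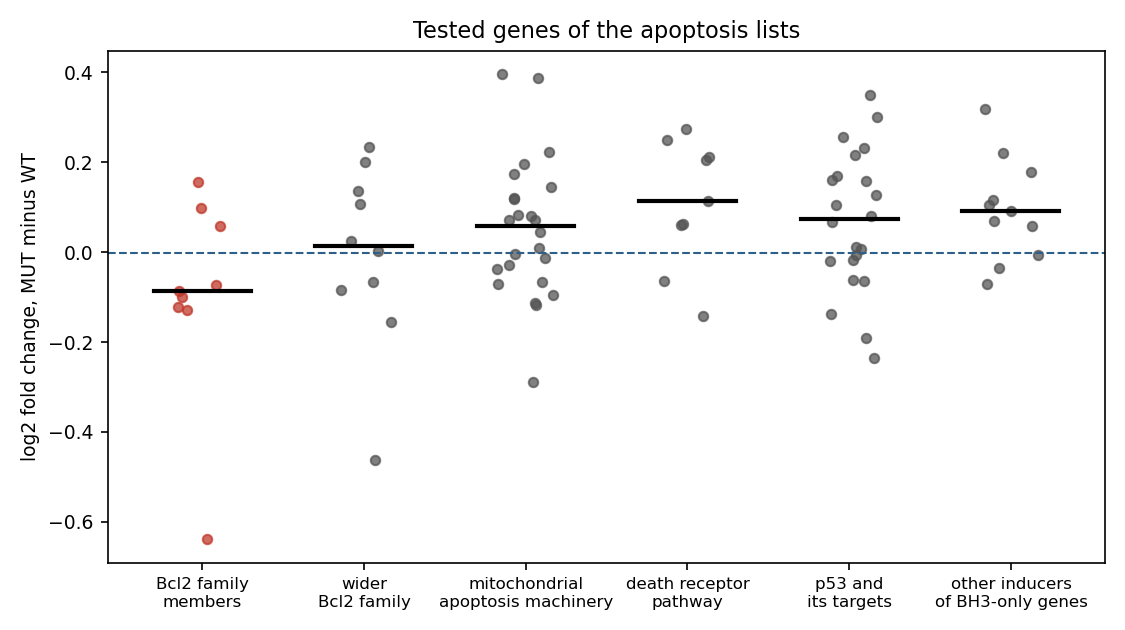
Log2 fold change, MUT minus WT, of each tested gene among the Bcl2 family members (red) and 5 further apoptosis lists (grey), with a black line at each median and a dashed line at the median of all tested genes. The member medians and those of the other lists lie between -0.09 and 0.11, and Bbc3 is the lowest point at -0.64.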

How the data were processed

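Per the labels' protocols, testis RNA (Trizol, then DNase I) went into a stranded mRNA kit. The authors deposited CPM for 24420 symbols, and mm10, edgeR 3.8.6, HTSeq 0.6.0 and TopHat2 2.0.10 are named, without roles, per the submitters' processing notes. Every CPM was within 0.001 of a whole multiple of the library's smallest value (100% of values), which gave 40426400 to 68192776 reads per library, and 3 reads equal 0.0445 to 0.0733 CPM. Libraries of a genotype differed beyond counting noise (chi-square per degree of freedom 6.44 for MUT and 13.2 for WT), so neither pair is 1 library deposited again. For pairs of a MUT and a WT library the value ran from 13.5 to 19.0. The WT libraries thus differed from each other nearly as much as the closest MUT and WT libraries did. Whether they are separate animals is not stated.

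Symbols with at least 1 CPM in at least 2 libraries were kept. log2(CPM + 0.5) was fitted with limma 3.58.1 (mean-variance trend, two-sided, R 4.3.3) over all 15364 tested genes, with Benjamini-Hochberg adjustment, and genes were called at an adjusted p under 0.05. Alternatives changed the pseudocount, filter, scaling, variance model, replicate block, GC and length correction (splines with 5 df) and library left out, or ran edgeR 4.0.16 and DESeq2 1.42.0 on recovered reads. The pipeline was tested on simulated data. Positions, lengths and GC content came from GENCODE vM21 (GRCm38, known as mm10), matched by symbol, and cover 96.2% of tested genes. Promoter windows came from RefSeq (GRCm38.p6).

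All members were named, with every gene of the wider family list, and from other lists any called gene, the 3 smallest p-values and the 2 most abundant genes. Members and lists were chosen with earlier results of these data known.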

Additional observations from a re-analysis of the deposited data

How the results depend on the processing

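The count of 1 member called lower (Bbc3) became 0 without the filter on low values, with a filter at 5 CPM (which left Bbc3 and Bid untested), after quantile normalization, without a variance trend, with DESeq2, and after the GC and length correction with or without the replicate block. When single libraries were left out it was 0 to 1. No member was called higher under any of the 18 alternatives. Over all tested genes, against 74 higher and 41 lower, the counts were 7 and 4 without the filter, 35 and 18 after quantile normalization, 5 and 2 without the trend, 127 and 35 with plain library totals (78.4% of calls higher, against 64.3%), 73 and 60 with DESeq2, 48 and 35 after the GC and length correction, 14 and 9 with that correction and the replicate block, and 67 to 133 higher and 42 to 177 lower when single libraries were left out, the most without WT 1 (without MUT 2, 101 and 86). There the lone library of a genotype was assumed to vary like the other genotype's. The cause was not tested.

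Whether libraries of the same replicate number were paired is not stated. Deviations of same-numbered libraries correlated at -0.134 across genes. These genes share the same 4 libraries, so the value cannot decide whether a pairing exists. Used as a block, the replicate number gave 57 and 31 calls and kept Bbc3 at -0.64. A crossed block, chosen after seeing the data, gave 131 and 104.

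Among members that were not called, a sign changed only when 1 library was left out: Bax ran from -0.012 (without WT 2) to 0.13, Bcl2l2 from -0.062 (without MUT 1) to 0.26 and Mcl1 from -0.17 to 0.021 (without WT 2). The other 5 kept their sign in all alternatives run. For Bad, Bak1, Bcl2l1 and Bcl2l11, whose genotypes did not overlap, leaving out a library could not change it. Depth limits Bcl2 most, and 127 to 313 reads limit Bbc3.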
